A study of Mus musculus with 15 samples.

Results

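The genes described here encode the enzymes that attach ubiquitin to proteins or take it off again, in the families whose mouse symbols begin with Ube2, Ube3, Ubr, Usp, Fbxo, Fbxw, Fbxl, Trim, Herc or Cul. A gene was included when its symbol met this rule and at least 1 binding site of the RNA-binding protein SAM68 (Khdrbs1) had been called in it on any day. This gave 129 of the 7949 genes with a site (1.62%), all protein-coding, out of 264 RefSeq protein-coding genes whose symbols met the rule. The rule goes by symbol alone, so that it also takes in Triml1, Triml2 and Uspl1, which lie outside the numbered series, and Usp6nl, whose product is related to Rab GTPase-activating proteins.

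SAM68 was mapped by iCLIP2, in which ultraviolet light joins a protein to the RNA it touches, an antibody pulls the pair down and the crosslinked nucleotide is read from where the cDNA ends. The cells were E14 mouse embryonic stem cells, an established line, and 15 libraries were made, 5 for each of 3 days. The day 0 libraries came from undifferentiated cells kept with leukemia inhibitory factor and inhibitors of GSK and MEK. The day 3 and day 10 libraries came from embryoid bodies, aggregates of differentiating stem cells grown in serum. According to the labels' protocols, the bodies for the earlier collection were started in hanging drops and those for day 10 directly in spheroid microplates, so day and culture format cannot be told apart between these groups. No group carries a transgene or a deletion, and the labels do not say whether the 5 libraries of a day came from separate cultures.

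The deposited values were 1 list of 5 nt sites per day, with 29740 sites at day 0, 28266 at day 3 and 74287 at day 10. Because the lists differ in length, a gene's share is given here as sites per 10000 sites of its day. A ratio between days is a ratio of such shares, followed in parentheses by its exact 95% interval, which covers counting error only. With 1 list per day and no values per library, no difference between days could be tested against the spread between replicates. A larger share can reflect more of the RNA, more binding to each molecule or more cells that make the RNA; RNA amounts were not used here, fewer cells of a type and less RNA per cell cannot be told apart, and the part of each was not tested. Marker genes differed between the lists: 8 stem-cell markers held 166, 10 and 6 sites at day 0, day 3 and day 10, 3 markers of primed cells 0, 45 and 0, 9 heart and mesoderm markers 0, 4 and 760, and 6 endoderm markers 0, 9 and 323. Of the 760 sites, Slc8a1 alone held 439, while the sarcomere genes Myh6, Tnnt2 and Actn2 held 6, 3 and 1, and Myh7 and Nkx2-5 had no site on any day. Sox2 and Sox17 also had no site, and all 4 heart and mesoderm sites of day 3 lay in Gata4.

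Ubiquitin is activated by an E1 enzyme, passed to an E2 conjugating enzyme and placed on a target with the help of an E3 ligase, which chooses the target. E3 ligases include HECT enzymes, which carry the ubiquitin themselves, and RING enzymes, which bring the charged E2 to the target; cullin complexes are RING ligases built on a scaffold, and their F-box subunits hold the target. Deubiquitinases, of which the Usp proteases are the largest group, remove the mark. In stem cells this system sets the lifetime of cell-cycle and pluripotency proteins, and in differentiating tissue that of signalling and structural proteins.

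Sequence around a site could be read for 2 member sites, those inside a RefSeq promoter window of build GRCm38.p6, which reaches from 250 nt before to 50 nt after a gene start. They are shown because they place binding at base resolution. In each line the capitals mark the 5 nt site, and the sequence is that of the RNA strand.
Triml1, day 0, chr8:43141469-43141493, minus strand: aacaagagcuUCUUGuaauaacaac
Usp11, day 3, chrX:20706814-20706838, plus strand: uuguauaacuCAUUUggagaugucc
The Triml1 site lay 5 nt after a RefSeq start of that gene, and the Usp11 site lay inside Usp11 at position -163 relative to the start of Gm39499. SAM68 is known to bind short A- and U-rich elements, and these stretches of 25 nt were searched on the strand of the site for UAAA or UUAA, a stretch with both being counted once. Neither stretch held one. Of the 394 sites of all genes in such windows, 56 (14.2%) did, against 46249 of 394212 stretches of the same length (11.7%) taken along the gene's strand over all promoter windows.

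The ubiquitin-system genes took about the same share of SAM68 sites on each day. Single members differed past 2-fold between days about as often as all genes tested, and less often for day 10 against day 3. The set held 749 sites at day 0, 685 at day 3 and 1846 at day 10, or 252, 242 and 248 per 10000. The ratio of day 10 to day 0 was 0.99 (0.906 to 1.08), of day 3 to day 0 0.96 (0.866 to 1.07) and of day 10 to day 3 1.03 (0.939 to 1.12). Sites were found in 99, 98 and 115 members on the 3 days, with a median of 4, 4 and 7 sites per bound member, against 2, 2 and 4 per bound gene overall. The 10 members with most sites held 40.1% of member sites at day 0, 36.5% at day 3 and 39.8% at day 10. Over the 3 lists together, 74 members had at least 10 sites, 55 had 1 to 9 and 17 of these had 1 or 2.

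Most of these genes were bound throughout. A site was called on every day in 79 of 129 members (61.2%), against 3288 of all 7949 genes (41.4%). Sites on day 10 alone were found in 16 members (12.4%, against 20.2% of all genes). On day 0 alone they were found in 5 (3.88%, against 8.18%) and on day 3 alone in 4 (3.10%, against 6.26%). Members were also longer and richer in sites than the average bound gene. Their median span was 49.3 kb with 13 sites over the 3 lists, against 37.0 kb and 6 sites for protein-coding genes. Across the members, site number and span had a Spearman correlation of 0.60 and a Pearson correlation of 0.58 on log values (n = 129 genes, which share the same 3 lists). Both were 0.41 over 7145 protein-coding genes. Median density was 2.78 sites per 10 kb for members and 1.84 for protein-coding genes. Among genes with at least 10 sites it was 4.33 and 4.64.

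**Figure D1:**
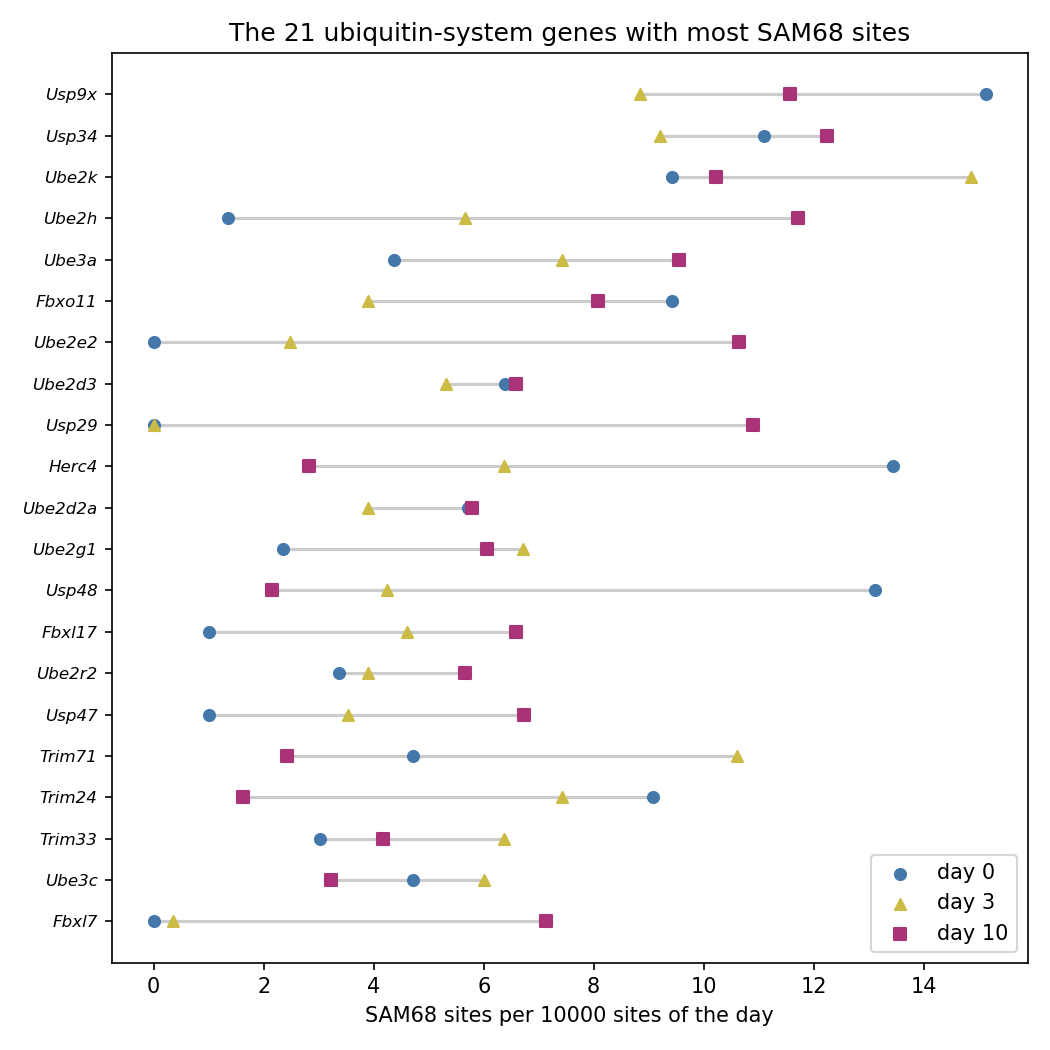
SAM68 sites per 10000 sites of the day for the 21 members with most sites, 1 point per day and a grey line over the range. Usp9x, Usp34 and Ube2k sat high on all 3 days, Usp29, Ube2e2 and Fbxl7 stood at 0 on day 0 and at 7 or more on day 10, and Herc4 and Usp48 ran the other way.

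A gene was called when its share differed past 2-fold and it had at least 10 sites over both lists. For day 10 against day 0, 67 members met the site minimum, 20 had a larger share (29.9%) and 17 a smaller one (25.4%), with 30 within 2-fold; another 58 had 1 to 9 sites on these days and were not called. Over all 2425 genes tested the background was 34.1% larger and 24.7% smaller, close to the members' shares. For day 3 against day 0, 42 members met the minimum, 8 were larger and 8 smaller (19.0% each), against a background of 19.3% and 20.3%. For day 10 against day 3, 58 met it, 8 were larger (13.8%, background 29.1%) and 9 smaller (15.5%, background 21.3%), and 41 stayed within 2-fold. Both shares were below the background in that comparison. The median log2 ratio, with a pseudocount of 1, was 0.00 for members and 0.12 for all genes in the comparison of day 10 with day 0, 0.06 and 0.00 for day 3 with day 0, and 0.12 and 0.04 for day 10 with day 3. The 3 comparisons share their lists, and a member can pass the site minimum through the day on which it is high.

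**Figure D2:**
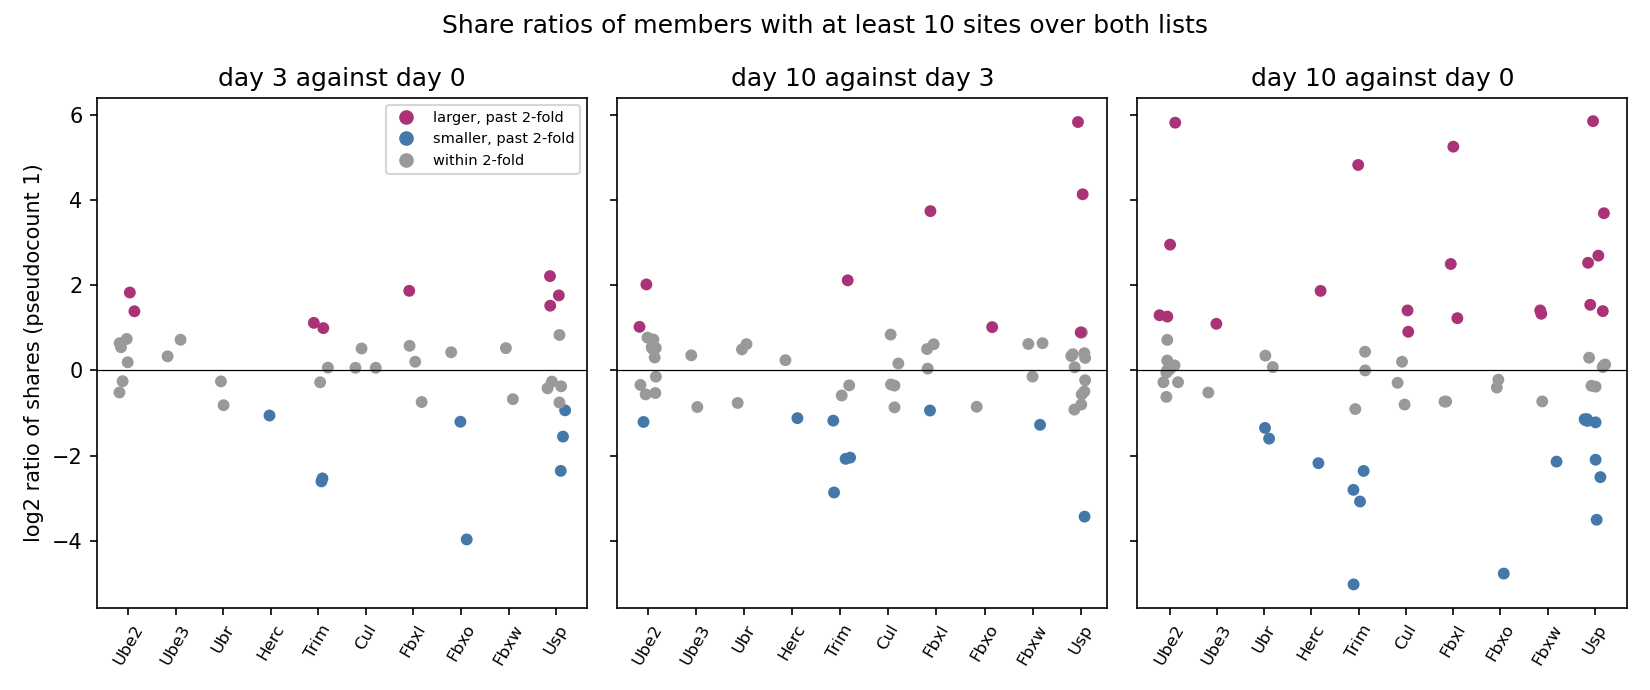
Log2 ratio of shares (pseudocount 1) by family for the 3 comparisons, 1 point per member with at least 10 sites over both lists, coloured by whether the plain ratio passed 2-fold. The spread is widest for day 10 against day 0, where Trim members lie mostly below 0 and the called Ube2 and Fbxl members all lie above it.

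**Figure D3:**
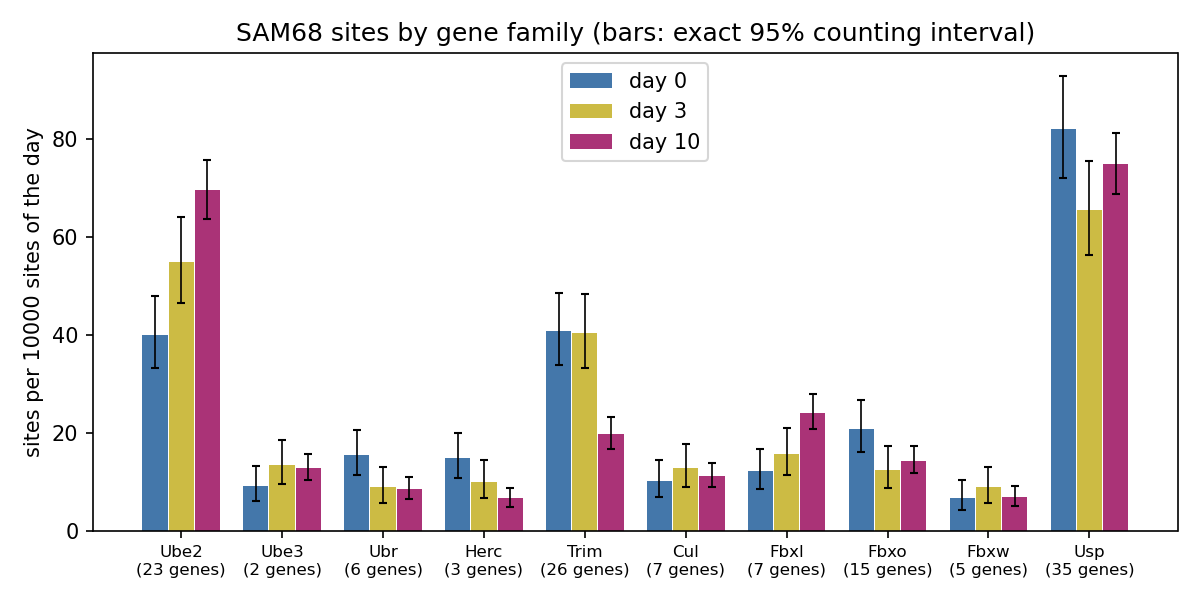
SAM68 sites per 10000 sites of the day, summed over each family, with exact 95% intervals for counting error as bars. Ube2 went from 40.0 at day 0 to 69.6 at day 10 and Trim from 40.7 to 19.8, and Usp held the largest share on each day.

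The E2 conjugating enzymes were a family with a larger share at each later day. The 23 Ube2 genes held 119, 155 and 517 sites, or 40.0, 54.8 and 69.6 per 10000, and the ratio of day 10 to day 0 was 1.74 (1.42 to 2.14). Of 14 members tested in that comparison, 4 were larger, none smaller and 10 within 2-fold, against 34.1% larger and 24.7% smaller over all genes, so the larger family share was not matched by a larger number of called genes. The value depended on Ube2e2 and Ube2h: without them the other 21 held 115, 132 and 351 sites and the ratio was 1.22 (0.987 to 1.52). Leaving out each member in turn gave ratios from 1.47 (without Ube2e2) to 1.94 (without Ube2k).

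Ube2k, which builds ubiquitin chains linked through lysine 48, the classical signal for the proteasome, had 28, 42 and 76 sites and a day 10 to day 0 ratio of 1.09 (0.696 to 1.74). It was among the most densely bound members, with 23.6 sites per 10 kb over 61.7 kb, and its densest 2 kb, between 65538511 and 65540335 on chromosome 5 (GRCm38) near the gene's start, held 19 sites, 6, 6 and 7 on the 3 days. Sites of Ube2k thus recurred in the same stretch at every stage. Ube2d3 and Ube2d2a, E2 enzymes that work with many RING ligases, had similar site numbers: Ube2d3 had 19, 15 and 49 sites and Ube2d2a 17, 11 and 43. Their ratios of day 10 to day 0 were 1.03 (0.597 to 1.86) and 1.01 (0.566 to 1.89). Ube2d3 was the densest member with at least 10 sites, at 27.7 per 10 kb of a 30.0 kb span, and Ube2d2a had 19.9 per 10 kb.

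Ube2h, which can ubiquitinate histones and is known for its part in red-cell maturation, had 4, 16 and 87 sites. Its share was larger in each step, 4.21 times (1.36 to 17.3) from day 0 to day 3 and 2.07 times (1.21 to 3.78) from day 3 to day 10, and it went from rank 43 among members at day 0 to rank 2 at day 10. Ube2e2, an E2 enzyme with a long N-terminal extension, had no site at day 0, 7 at day 3 and 79 at day 10, and its day 10 to day 3 ratio was 4.29 (1.99 to 11.03). The related Ube2e3 had 2, 3 and 14 sites and Ube2e1 0, 2 and 3. Ube2e2 carried most sites of this subfamily, but over a span of 320.7 kb, against 60.6 kb for Ube2e3 and 49.3 kb for Ube2e1. Per 10 kb over the 3 lists, Ube2e2 had 2.68 sites, Ube2e3 3.14 and Ube2e1 1.01. Ube2g1, an E2 enzyme that lengthens chains on targets of cullin ligases, had 7, 19 and 45 sites and differed early, by 2.86 times (1.15 to 8.04) from day 0 to day 3 and 0.901 times (0.517 to 1.63) from day 3 to day 10.

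Among the HECT ligases, Ube3a, the gene of Angelman syndrome, which is imprinted in neurons, had 13, 21 and 71 sites and a day 10 to day 0 ratio of 2.19 (1.20 to 4.31). Its densest 2 kb held 15 sites and lay near the 3′ end, centred at 96.3% of the span. Ube3c, which lengthens ubiquitin chains on proteins at the proteasome, had 14, 17 and 24 sites and a ratio of 0.686 (0.341 to 1.44), and these were the only Ube3 genes with sites. The Herc genes encode HECT ligases with RCC1-like repeats, and 2 of them moved in opposite directions. Herc4, which is needed for sperm maturation, had 40, 18 and 21 sites, ranked second among members at day 0, and its share at day 10 was 0.210 times (0.118 to 0.365) that at day 0. Herc1, a giant ligase, had 2, 7 and 22 sites and a ratio of 4.40 (1.08 to 38.6). Herc4 therefore set the family's ratio of 0.446 (0.291 to 0.686): the ratio was 2.80 without it and 0.257 without Herc1.

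The Ubr proteins recognise destabilising residues at protein ends, the N-degrons, or carry the UBR domain that does so. The 6 Ubr genes held 46, 25 and 63 sites, a ratio of 0.548 (0.369 to 0.820) for day 10 against day 0. Ubr3, a RING ligase of the family, had 9, 7 and 29 sites and a ratio of 1.29 (0.595 to 3.10), so that it did not share the smaller value of the family sum, and without it the family ratio was 0.368.

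The Trim family, RING ligases with a tripartite motif, had a smaller share at day 10. Its 26 genes held 121, 114 and 147 sites, or 40.7, 40.3 and 19.8 per 10000. The ratio was 0.991 (0.761 to 1.29) for day 3 against day 0 and 0.491 (0.382 to 0.632) for day 10 against day 3. Of 8 members tested for day 10 against day 0, 1 was larger and 4 smaller, against 34.1% and 24.7% of all genes tested. Without Trim24, Triml1 and Triml2 the day 10 to day 0 ratio was 0.819 (0.604 to 1.12) and the day 10 to day 3 ratio 0.562 (0.427 to 0.743). For those 23 genes the day 3 to day 0 ratio was 1.46 (1.05 to 2.04). Leaving out each Trim gene in turn gave day 10 to day 0 ratios from 0.357 (without Trim44) to 0.575 (without Trim24).

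Trim71 (LIN-41), a ligase and RNA-binding protein of pluripotent and progenitor cells and a target of let-7, was highest on day 3. It had 14, 30 and 18 sites, ratios of 2.25 (1.16 to 4.602) for day 3 against day 0 and 0.228 (0.120 to 0.423) for day 10 against day 3, and ranked second among members on day 3. Trim24, a chromatin reader that also restrains p53, had 27, 21 and 12 sites, with little difference between the early days, 0.818 (0.440 to 1.503), and a day 10 to day 3 ratio of 0.217 (0.0975 to 0.463). Trim37, the gene of mulibrey nanism, which keeps centriole number in check, had 9, 9 and 2 sites and the same timing. Trim44, which has a zinc-finger domain of deubiquitinases in place of a RING domain, went the other way with 0, 3 and 39 sites. All 42 of its sites lay past the first part of the gene when the span was divided into 3 equal parts, 11 in the middle and 31 in the last part, and 11 fell in 2 kb at 98.5% of the span.

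Triml1 and Triml2 are neighbours on chromosome 8 on opposite strands, and their RefSeq spans overlap by 32 nt. Triml1, which is known from preimplantation embryos, had 18, 2 and 0 sites and Triml2 11, 1 and 2, so that day 0 held 29 of the 34 sites of the pair. For day 3 against day 0 the ratio was 0.117 (0.0132 to 0.488) for Triml1 and 0.0956 (0.00222 to 0.658) for Triml2. The 20 Triml1 sites were spread over 10.5 kb at the 3′ end of a span of 50.7 kb, and the site printed above was the one nearest to the internal RefSeq start. The deposited lists had sites in overlapping genes removed, per the file headers. Whether this touched the 32 nt shared by the RefSeq spans of the pair was not checked.

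The cullins, the scaffolds of a large class of E3 ligases, held similar shares on each day. The 7 genes held 30, 36 and 83 sites, a day 10 to day 0 ratio of 1.11 (0.722 to 1.74). Cul1, the scaffold of the SCF ligases that carry F-box proteins, had 10, 14 and 29 sites and a ratio of 1.16 (0.550 to 2.67). Cul3, which uses BTB-domain proteins to hold its targets, had 4, 4 and 20 sites and stood just past the 2-fold limit at 2.00 (0.671 to 8.05), and was within it when only protein-coding genes made up the total or when sites within 50 nt were merged. Cul4b, an X-linked scaffold, had 6, 6 and 12 sites, 14 of which fell in a single stretch of 2 kb and appeared there on each day (4, 4 and 6).

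The F-box genes supply the target-binding subunits of SCF ligases and fall into classes by their other domains. The 7 Fbxl genes, with leucine-rich repeats, held 36, 44 and 179 sites, and their day 10 to day 0 ratio was 1.99 (1.39 to 2.93). The ratio rested on Fbxl7 and Fbxl17, the 2 longest Fbxl genes named here, at 355 and 458 kb, and was 0.934 (0.614 to 1.45) without them. Fbxl7, which has been linked to Aurora A and survivin, had 0, 1 and 53 sites, 40 of its 54 in the middle part of the span. Fbxl17, which takes apart faulty BTB-domain dimers, had 3, 13 and 49 sites and a larger share by day 3 already, at 4.56 times (1.25 to 24.9) day 0.

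The 15 Fbxo genes held 62, 35 and 106 sites, with a day 10 to day 0 ratio of 0.684 (0.496 to 0.952). Fbxo15, a gene expressed in pluripotent cells and long used as a reporter of reprogramming, had 15 sites at day 0 and 0 on the later days. The family ratio was 0.903 without Fbxo15 and 0.542 without Fbxo11. The 15 Fbxo15 sites were spread over the whole 46.9 kb span. Fbxo11, whose targets include BCL6, held most sites of the class with 28, 11 and 60, and its share dipped on day 3, at 0.413 (0.186 to 0.856) of day 0, and was 2.08 times (1.08 to 4.38) larger again at day 10. Its densest 2 kb held 17 sites. Fbxo42, which acts on p53, had 6, 8 and 11 sites and stayed within 2-fold in each comparison.

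The 5 Fbxw genes, with WD40 repeats, held 20, 25 and 51 sites and a day 10 to day 0 ratio of 1.02 (0.598 to 1.81). This value joined genes that ran in opposite directions: it was 0.706 without Fbxw11 and 1.71 without Fbxw2, an SCF subunit with 9, 5 and 4 sites and a ratio of 0.178 (0.0400 to 0.638). Fbxw7, the subunit that directs MYC, cyclin E and NOTCH to destruction, had 7, 10 and 10 sites and a day 10 to day 3 ratio of 0.380 (0.142 to 1.02), an interval that includes 1. Fbxw11, a β-TrCP protein acting on β-catenin and IκB, had 3, 5 and 21 sites and a day 10 to day 0 ratio of 2.80 (0.837 to 14.7), also with 1 inside the interval.

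The 35 Usp genes were the largest family and held 244, 185 and 556 sites, or 82.0, 65.4 and 74.8 per 10000. The day 10 to day 0 ratio was 0.912 (0.783 to 1.06). Without Usp29 it was 0.779 (0.666 to 0.913), and without Usp48 it was 1.05. These were the lowest and highest values on leaving out each Usp gene in turn. Of 20 Usp genes tested, 6 were larger, 8 smaller and 6 within 2-fold, where 34.1% of all genes tested were larger and 24.7% smaller.

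Usp9x, an X-linked deubiquitinase of many signalling and survival proteins, and Usp34, a very large deubiquitinase that acts in WNT signalling, were bound heavily on all days. Usp9x had 45, 25 and 86 sites and ranked first among members at day 0. Usp34 had 33, 26 and 91 and ranked first at day 10. Their day 10 to day 0 ratios were 0.765 (0.527 to 1.12) and 1.10 (0.734 to 1.70). In Usp9x, 17 sites fell between 13118496 and 13120232 on chromosome X near the middle of the gene, whereas 86 of 150 Usp34 sites lay in the last of 3 equal parts of its 187 kb.

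Usp48, a nuclear deubiquitinase that acts on histone H2A, and Usp46, which works with WD-repeat partners and is known from mouse behaviour, had their sites mainly at day 0. Usp48 had 39, 12 and 16 sites, a ratio of 0.164 (0.0857 to 0.301) for day 10 against day 0 and 0.324 (0.154 to 0.631) for day 3 against day 0. Usp46 had 15, 2 and 2 sites and ratios of 0.0534 (0.00592 to 0.230) and 0.140 (0.0156 to 0.603). Both were therefore smaller by day 3 already, unlike Trim24 and Trim37, which were within 2-fold at that step. Whether the timing differs beyond the spread between libraries could not be tested.

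Usp28, which stabilises MYC and takes part in the p53 response to slow mitosis, peaked on day 3 with 6, 30 and 6 sites. The ratios were 5.26 (2.15 to 15.5) for day 3 against day 0 and 0.0761 (0.0259 to 0.186) for day 10 against day 3. Usp28 and Trim71 each had 30 sites on day 3, and they shared rank 2 among members on that day, behind Ube2k.

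Usp29, a paternally expressed imprinted gene beside Peg3, had 0, 0 and 81 sites. Of these, 69 lay within 50 kb of the RefSeq start of a 237 kb span on chromosome 7 (6730559 to 6967220). The Peg3 span begins 96 nt away, and that imprinted neighbour, a zinc-finger gene outside the set, had 2, 5 and 43 sites. Usp47, a deubiquitinase of base excision repair and WNT signalling, had 3, 10 and 50 sites and a day 10 to day 0 ratio of 6.67 (2.16 to 33.4). Usp32, a membrane-bound deubiquitinase, had 3, 12 and 22 sites and a ratio of 2.94 (0.882 to 15.3), which includes 1. Usp25, which acts in immune and WNT signalling, had 0, 5 and 17 sites. Usp3, which acts on histone H2A, had 1, 0 and 24 sites and lies 5863 nt from Herc1 on the opposite strand of chromosome 9. Herc1 also held most of its sites at day 10, which is the longest list. Its day 10 to day 3 ratio was 1.20 (0.493 to 3.31), within 2-fold. Usp7, another deubiquitinase of p53 regulation, was not counted: an ID with 65 sites reached into its span, but only 30 of them fell inside it.

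**Figure D4:**
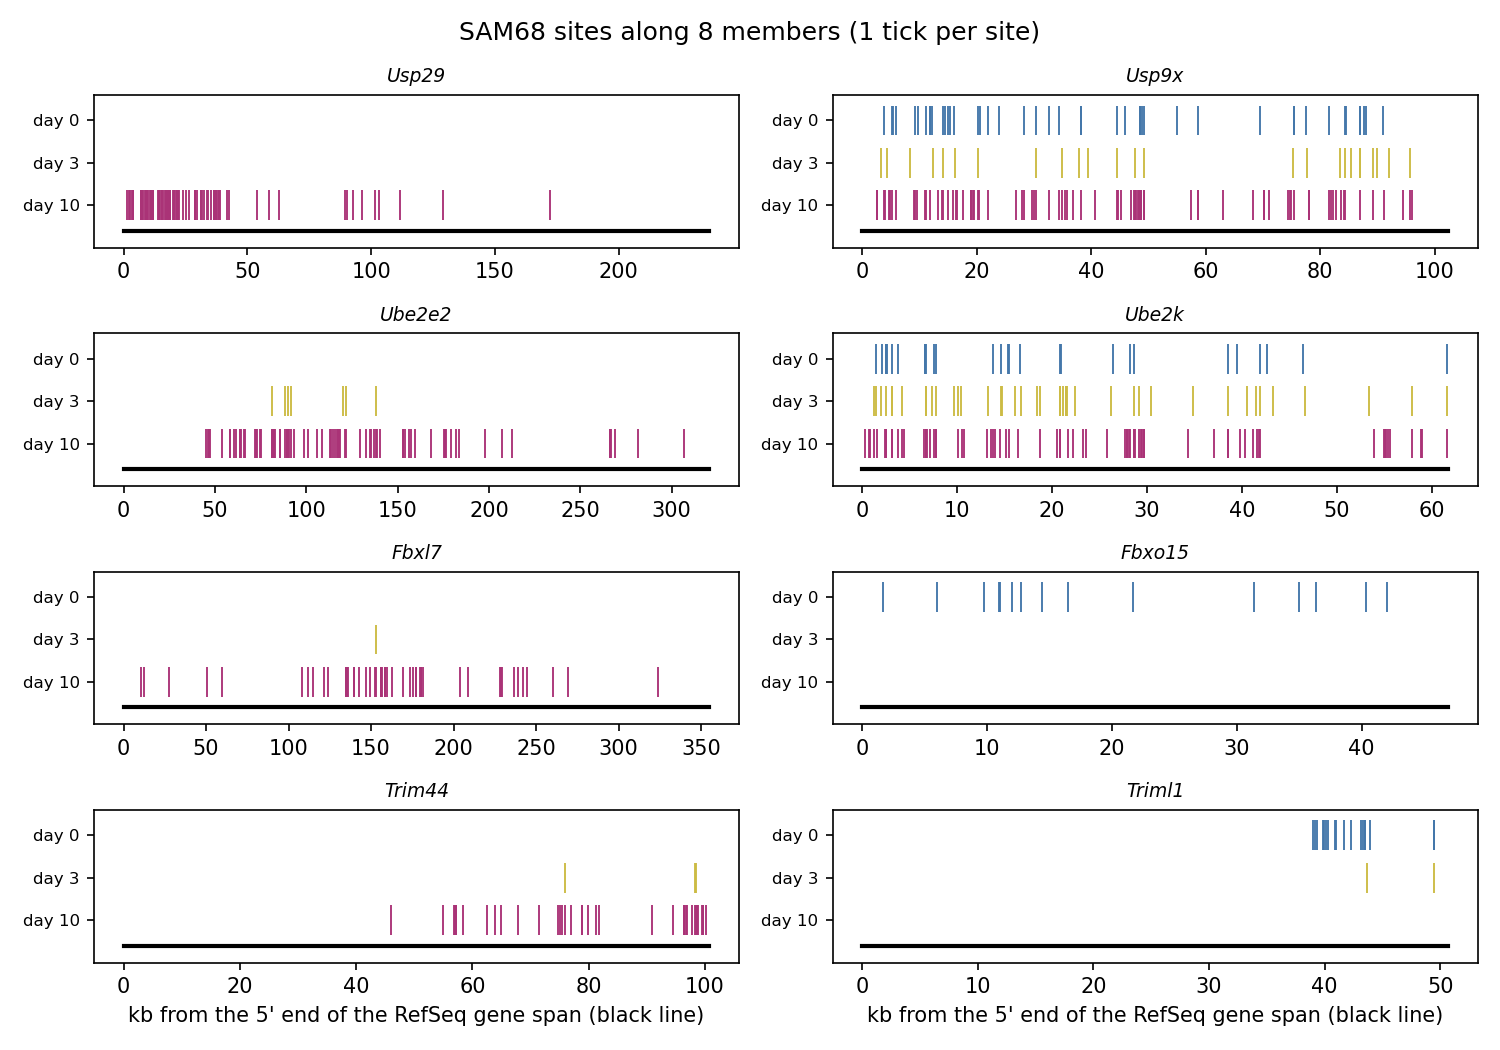
SAM68 sites along 8 members, 1 tick per site and 1 row per day, against distance in kb from the 5′ end of the RefSeq span (black line). Usp29, Ube2e2, Fbxl7 and Trim44 carry their ticks almost wholly on day 10 and in different parts of the gene, Usp9x and Ube2k are covered on all days, and Fbxo15 and Triml1 are covered at day 0.

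Some members with few sites belong to heart and skeletal muscle; they were picked out after their values had been seen. Trim55, a ligase of the sarcomere, had 0, 0 and 4 sites, and Fbxo32 (atrogin-1), which drives muscle protein loss, had 0, 0 and 3. Both were listed on day 10 alone, as was Usp13, with 8 sites, and Fbxo36, with 6. None of these 4 reached the minimum of 10 sites. Sites on day 10 alone were found in 12.4% of members and 20.2% of all genes. No list of muscle genes was drawn up for these families, so those without a site are not counted here.

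Sites of these genes coincided between days about as often as sites in general. Of the 749 member sites at day 0, 18.6% (15.8% to 21.5%) overlapped a day 3 site on the same strand by at least 1 nt and 25.8% (22.7% to 29.1%) a day 10 site, against 17.4% and 24.1% of all sites. Of the day 3 sites, 20.0% overlapped a day 0 site and 28.03% a day 10 site, against 18.3% and 25.9%. Of the 1846 day 10 member sites, 10.4% overlapped day 0 and 10.5% day 3, against 9.68% and 9.90% of all day 10 sites. Of the same member sites, 84.0% (82.2% to 85.6%) overlapped neither, against 84.4% of all day 10 sites. The day 10 list is the longest, and an overlap is thus a different share of each list. In all, 89 day 10 sites (4.82%, against 4.04% of all sites) overlapped sites of both earlier days. Ube2k had 8 of these, Usp34 6, Usp48 5 and Usp9x 4. Usp48 had 5 such sites at a share that was 0.164 times that of day 0.

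**Figure D5:**
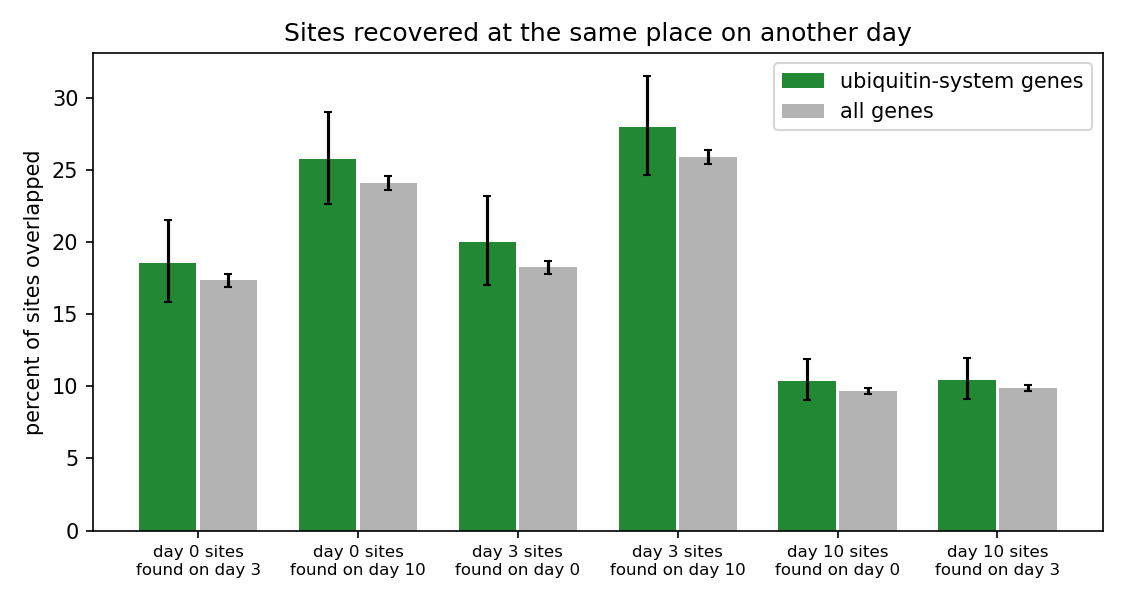
Percent of sites of a day that overlapped a site of another day by at least 1 nt on the same strand, for ubiquitin-system genes (green) and all genes (grey), with exact 95% binomial intervals as bars. Each green bar lies slightly above its grey neighbour, by less than its interval.

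Where sites lay along the gene was compared with protein-coding genes as a description. When spans were divided into 3 equal parts, 33.3% (30.0% to 36.8%), 31.7% (28.2% to 35.3%) and 27.2% (25.2% to 29.3%) of member sites at day 0, day 3 and day 10 fell in the 3′ part, against 33.8%, 34.1% and 31.6% for protein-coding genes. Within 2 kb of the 3′ end of the RefSeq span lay 5.09% (3.62% to 6.92%), 6.63% (4.87% to 8.77%) and 3.75% (2.93% to 4.72%) of member sites at day 0, day 3 and day 10, against 8.96%, 9.76% and 6.94% for protein-coding genes. A window of fixed size is a smaller part of a long gene, and the members' median span was the longer, so the values are given without a reading of preference. Sites with a neighbour of the same day within 100 nt made up 14.02%, 11.2% and 18.7% of member sites and 12.7%, 10.4% and 20.1% of all sites.

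Other genes of the ubiquitin system, from a list of 257 symbols in 6 groups, were read in the same way. Of the 250 symbols known to RefSeq, 180 had a site, and they held 887, 770 and 2099 sites. For day 10 against day 0, 81 met the site minimum, 24 were larger, 19 smaller and 38 within 2-fold, close to the background of 34.1% and 24.7% over all genes, and the median log2 ratio was 0.10. By group, 11 of 33 other RING or RBR ligases were larger and 6 smaller, 7 and 6 of 23 cullin partners, 3 and 1 of 8 other HECT ligases, 2 and 4 of 10 other deubiquitinases, 1 and 0 of 3 ubiquitin and E1 genes, and 0 and 2 of 4 proteasome genes. For day 3 against day 0, 13 of 52 were larger and 12 smaller, against 19.3% and 20.3% of all genes. For day 10 against day 3 the counts were 18 and 10 of 77, against 29.1% and 21.3%.

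The most heavily bound of them were ligases with sites on every day. Nedd4, a HECT ligase of membrane proteins, had 47, 40 and 126 sites, Arih1, an RBR ligase that works with cullins, 52, 43 and 101, and Trip12, a HECT ligase of nuclear proteins, 43, 28 and 79. Rnf217, an RBR ligase, had 0, 1 and 46 sites and Pja2, a RING ligase that acts on protein kinase A, 0, 0 and 38. In the other direction, Rnf220, a RING ligase, had 17, 2 and 2 sites and Nedd4l, a HECT ligase of ion channels, 15, 0 and 3, with day 10 to day 0 ratios of 0.0471 (0.00528 to 0.198) and 0.0801 (0.0149 to 0.283). Nedd4 and Nedd4l are close relatives, and the share of Nedd4 stayed at 1.07 times (0.762 to 1.53) its day 0 value.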

How the data were processed

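The authors deposited 1 list of SAM68 sites per day, whose deposited score column is 0 throughout (set off for display, per the file headers) and was not used. Sites had been assigned to Ensembl genes and those in overlapping genes removed, per the file headers. Per the submitters' processing notes, tools were STAR 2.7.11a, SAMtools 1.22.1, bedtools 2.31.1, UMI-tools 1.1.6, FastQC 0.12.1 and MultiQC 1.31, with GRCh38.p14 and GRCm38.p5 as builds. For the site caller and for the pooling of the 5 libraries per day, the method is not given in the sources used here. No crosslink counts were used, so depth is unknown.

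Gene IDs were named by position, from the RefSeq gene (GRCm38.p6) of like class and strand with at least 80% of the ID's sites in its span. This named 7484 of 7949 IDs (94.2%). Shares, exact conditional intervals for ratios and Clopper-Pearson intervals were computed over all genes with SciPy 1.17.1, pandas 2.3.3 and NumPy 2.4.6 under Python 3.11.15, and plots used matplotlib 3.10.9. Log2 ratios had a pseudocount of 1 scaled to list length. The steps were tested on simulated data. No ratio is given against a day at 0 sites. Members and lists were chosen with earlier results of these data known. Named genes were the 2 members with most sites per family, the 5 largest and 5 smallest log2 ratios per comparison, the 5 densest, the 5 with most sites overlapped on all days, and from the other ubiquitin genes the 3 with most sites and the 2 largest and 2 smallest ratios. Some genes that this rule names are not reported here. Further genes (Ube2e1, Ube2e3, Ube2g1, Cul4b, Fbxw2, Usp7, Usp11, Usp13, Trim55, Fbxo32, Fbxo36 and Peg3) were added after their values were seen. Alternatives changed the total, the fold, the site minimum, the pseudocount, the naming and the overlap.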

Additional observations from a re-analysis of the deposited data

How the results depend on the processing

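No paired analysis was possible because the lists carry no replicate numbers, and for the same reason no library was left out. The planned motif search around all sites was not run, since no genome of the build was used here; the promoter-window search, the family values without single members and the Usp7 alternative were chosen after seeing the data. Of the summary values under the alternatives, 166 stayed within their limits and 44 moved. Of the values for named genes, 488 kept their call, 20 lost it, 18 gained one and none reversed. A reversal needed a change of sign, which a different fold or site minimum cannot produce. Without the 20 genes with most sites in the total, members held 273 sites per 10000 at day 0 and 272 at day 10, and without Usp9x 237 at day 10.

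Counts below are members with a larger and a smaller share over the whole course (day 10 with day 0), the early step (day 3 with day 0) and the late step (day 10 with day 3). The share of all genes called can change with each setting too and is not given here. The counts therefore describe the members alone and cannot be set against the background. At 1.5-fold, 15 were larger in the early step, and 18 larger and 18 smaller in the late step. At 3-fold they were 13 and 11 over the whole course, 5 and 5 in the early step, and 5 and 4 in the late step, and 12 other ubiquitin genes were smaller over the whole course. When the exact interval had to exclude 1, 13 members and 12 other ubiquitin genes were larger over the whole course, and 5 members smaller in the late step. With a minimum of 5 sites they were 13 and 13 in the early step and 18 and 17 in the late step. With a minimum of 20 sites, 6 members were smaller over the whole course, where the median log2 ratio was 0.30, the early step had 5 and 4, and other ubiquitin genes had 15 and 6 over the whole course. With no minimum they were 42 and 37 over the whole course, 29 and 30 in the early step and 37 and 29 in the late step, and the other ubiquitin genes 63 and 49.

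Counting identical positions alone, overlap was 8.54% and 12.6% of day 0 sites (on day 3 and day 10), 9.34% and 10.4% of day 3 sites (on day 0 and day 10) and 5.09% and 3.85% of day 10 sites (on day 0 and day 3). With centres within 20 nt it was 29.4% for day 0 on day 10, 32.3% for day 3 on day 10, and 12.8% and 12.7% for day 10 on day 0 and day 3. These values are for member sites, and the share of all sites was not computed under either setting.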
